A study of Mus musculus with 6 samples.

Results

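Lima1, Them6, Spats2 and Letmd1 are 4 genes of mouse chromosome 15 that were chosen by the comparison reported here, as genes whose RNA differed between WT and PYK2 KO macrophages and whose products have roles in actin, thioester, RNA and mitochondrial biology. They are 4 of the 55291 genes listed in the count table, of which 18659 had at least 1 count and 9815 were tested. RNA was sequenced from bone marrow-derived macrophages (BMDMs), primary macrophages grown from marrow cells for 7 days in medium holding L929-conditioned DMEM, which supplies M-CSF. The WT group was 3 C57BL/6 mice (libraries 1, 5 and 6) and the PYK2 KO group 3 C57BL/6 mice of the PYK2-/- line (libraries 2, 3 and 4), with one library per mouse. In this line PYK2 is missing from every cell and not only from macrophages, and which piece of the gene was removed, and the age and sex of these mice, are not given in the sources used here. PYK2 is a non-receptor tyrosine kinase of adhesion sites and a relative of FAK.

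Each of the 4 genes stands for a different part of cell biology. Lima1 encodes EPLIN, a LIM domain protein that binds and bundles actin filaments, slows their disassembly and restrains the branching of filaments by the Arp2/3 complex. Macrophages rely on such actin regulators for adhesion and movement. Them6 encodes a membrane protein with a thioesterase-like fold, the fold of enzymes that cut the thioester bond between an acyl chain and coenzyme A. Spats2 encodes a cytoplasmic RNA-binding protein first described in male germ cells. Letmd1 encodes a protein of the mitochondrial inner membrane with a LETM1 domain, the domain of a protein of cation exchange across that membrane.

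The genes lie in 2 places. Positions are from the GENCODE M21 annotation of GRCm38 (mm10), matched by symbol. Them6 lies on the plus strand at chr15:74721204-74724639, 24.4 Mb before the others. Spats2 (plus strand, chr15:99125916-99213215), Lima1 (minus strand, chr15:99778470-99875456) and Letmd1 (plus strand, chr15:100469023-100479164) follow each other within 1.35 Mb, with 0.565 Mb between Spats2 and Lima1 and 0.594 Mb between Lima1 and Letmd1. The library method reads the 3′ end of polyadenylated RNA, so it counts a gene and not its isoforms. The 2 main coding transcripts of Lima1 end at the same base and start 55313 bases apart, so the counts cannot tell the longer EPLIN from the shorter.

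RefSeq windows before the start site matched 3 of the 4 genes, Lima1, Spats2 and Letmd1, and Them6 was not matched. Those of Lima1 and Letmd1 are printed because they lie outside annotated exons, and no relation between the window and the direction of a difference was tested. Each line holds the 250 bases before the start listed by RefSeq on GRCm38.p6, read 5′ to 3′ on the strand of the gene, and capitals mark matches to the 7 short motifs searched on both strands (the GC box GGGCGG, the box CCAAT, the ETS core CCGGAA, the PU.1 core GAGGAA, the TATA box TATAAA, the E-box CACGTG and the AP-1 site TGACTCA). The window of Lima1 is chr15:99820150-99820399 on the minus strand, inside an intron of the longer Lima1 transcript and just before the start of the shorter. The start of the longer transcript was not analysed here. The window of Letmd1 is chr15:100468761-100469010 on the plus strand.
Lima1: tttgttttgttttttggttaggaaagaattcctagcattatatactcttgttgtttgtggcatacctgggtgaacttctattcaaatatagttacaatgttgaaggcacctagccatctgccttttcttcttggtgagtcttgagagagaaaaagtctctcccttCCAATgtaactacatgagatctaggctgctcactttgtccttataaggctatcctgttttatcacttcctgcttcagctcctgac
Letmd1: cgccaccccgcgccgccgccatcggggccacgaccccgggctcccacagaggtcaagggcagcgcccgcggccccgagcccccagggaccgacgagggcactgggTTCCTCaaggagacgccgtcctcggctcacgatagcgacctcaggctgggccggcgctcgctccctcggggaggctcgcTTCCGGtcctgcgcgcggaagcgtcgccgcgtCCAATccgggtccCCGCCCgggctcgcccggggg

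The Lima1 window was 39.2% G and C, with 10.3% of the 32851 RefSeq windows lower, and held 0 CpG dinucleotides. By contrast, the Letmd1 window was 77.6% G and C, with 97.6% of windows lower, and held 37 CpG. For Spats2 the window (chr15:99126595-99126844, plus strand) resembled that of Letmd1, with 78.4% G and C and 39 CpG, and all of its 250 bases lie in annotated exons. The 1 match in the Lima1 window was CCAAT, 85 bases before the start, a motif found in 33.8% of all windows. In the Letmd1 window CCAAT lay 34 bases before the start, and GAGGAA (23.3% of all windows), CCGGAA (12.0%) and GGGCGG (32.7%) lay 145, 66 and 21 bases before it on the other strand. The Spats2 window held GGGCGG 3 times, of which 2 overlap, and GAGGAA and CCGGAA once each. TATAAA (12.4% of windows), CACGTG (6.02%) and TGACTCA (4.46%) were found in none of these 3 windows. A match is a stretch of letters and not a measured binding site.

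The libraries held between 2857097 and 3917207 counts, so that 1 count was worth between 0.255 and 0.351 CPM (counts per library size, scaled by the TMM method of edgeR), the unit of all levels given here. Ptk2b, the gene for PYK2, was counted 737, 701 and 568 times in WT and 71, 64 and 69 times in PYK2 KO BMDMs, or 194.5 ± 5.63 against 21.8 ± 1.14 CPM (SD, n = 3 mice). Macrophage markers were present in every library, with 10 of 10 tested and a summed level of 29685 to 30464 CPM in WT and 30856 to 31847 CPM in PYK2 KO BMDMs. Markers of erythroid cells (5 of 5) and the stromal markers Col3a1, Dcn and Lum were at 0, and the 7 stromal markers summed to at most 1.53 CPM. B cell markers summed to 19.3 to 20.7 CPM in WT and 13.8 to 23.2 in PYK2 KO BMDMs, with 5 of 6 at 0, and neutrophil markers to 36.0 to 36.8 and 25.0 to 46.8 CPM, with none of 6 at 0. T cell markers summed to 4.85 to 9.24 and 4.47 to 6.42 CPM (3 of 6 at 0) and dendritic cell markers to at most 1.02 CPM (4 of 6 at 0). B2m varied across genotypes, at 971, 1046 and 1521 CPM in WT 1, KO 3 and KO 4 and 263, 213 and 523 CPM in WT 5, WT 6 and KO 2. A grouping of the former against the latter libraries, taken from these data and without a clear gap at KO 2, was used as a covariate in one of the other settings. The part of the marker levels in the results was not tested.

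With Benjamini-Hochberg adjustment and a threshold of 0.05, the quasi-likelihood test of edgeR called 25 of 9815 genes, or 0.255%, of which 11 were higher (0.112%) and 14 lower (0.143%) in PYK2 KO BMDMs. All 4 genes are among them, Lima1 and Them6 higher and Spats2 and Letmd1 lower, because this test chose them. Nothing is therefore read from their count, and their differences are given as a description. In BMDM cultures a lower level can mean less RNA per cell or fewer cells that hold it, and the data cannot tell these apart.

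Lima1, the actin regulator, was higher in every PYK2 KO library. It had 171, 170 and 115 counts in WT 1, 5 and 6 and 253, 226 and 305 counts in KO 2, 3 and 4. Its levels were 43.7, 47.6 and 40.3 CPM in WT against 81.2, 78.3 and 90.9 CPM in the KO. The genotypes were far from overlapping, with the highest WT library (WT 5) well below the lowest PYK2 KO library (KO 3), a gap of 30.7 CPM. The means were 43.9 ± 3.64 and 83.5 ± 6.61 CPM (SD, n = 3 mice), so the RNA of this actin-bundling protein stood at 190% of the WT level (log2 fold change 0.93, SE 0.11).

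Them6, the thioesterase-like gene, had the largest fold difference of the 4 and was also higher in every PYK2 KO library. There were 26, 33 and 29 counts in WT 1, 5 and 6 and 79, 57 and 65 in KO 2, 3 and 4. Scaled by library size this was 6.64, 9.24 and 10.2 CPM in WT against 25.3, 19.7 and 19.4 CPM in the KO. KO 2 was the highest and WT 1 the lowest, and the other PYK2 KO libraries lay close together above every WT library. The mean was 8.68 ± 1.83 CPM in WT against 21.5 ± 3.35 CPM in the KO (SD, n = 3 mice), a 2.50-fold difference (log2 fold change 1.32, SE 0.21).

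Spats2, the RNA-binding protein gene, was lower in every PYK2 KO library. Counts were 77, 62 and 55 in WT 1, 5 and 6 and 27, 21 and 38 in KO 2, 3 and 4. The levels were 19.7, 17.4 and 19.3 CPM in WT against 8.66, 7.27 and 11.3 CPM in the KO. WT libraries lay close together, PYK2 KO libraries were spread more widely, and KO 4 came nearest to WT with a gap of 6.03 CPM. The means of 18.8 ± 1.24 and 9.09 ± 2.06 CPM (SD, n = 3 mice) put this RNA-binding protein's transcript at 48.9% of the WT level (log2 fold change -1.03, SE 0.20).

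Letmd1, the mitochondrial gene, was lower in every PYK2 KO library and had the smallest fold difference of the 4. It was counted 142, 160 and 132 times in WT 1, 5 and 6 and 87, 68 and 79 times in KO 2, 3 and 4. Levels were 36.3, 44.8 and 46.3 CPM in WT against 27.9, 23.6 and 23.5 CPM in the KO. WT 1 was the lowest of its group and KO 2 the highest of its own, and 8.35 CPM separated them. The mean was 42.4 ± 5.40 CPM in WT against 25.0 ± 2.52 CPM in the KO (SD, n = 3 mice), or 59.2% of the WT level for this mitochondrial membrane protein (log2 fold change -0.76, SE 0.14).

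**Figure D1:**
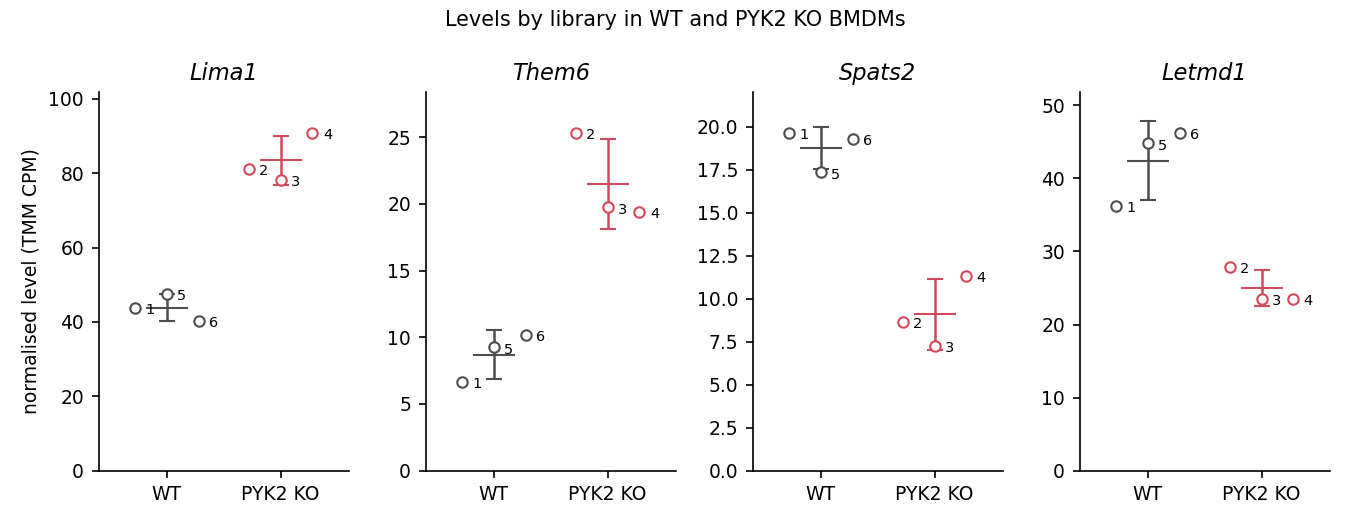
Normalised level (TMM CPM, linear axes from 0) of Lima1, Them6, Spats2 and Letmd1 in each library, numbered as the mice are, with the mean and SD of 3 mice per genotype as bars. In each panel every PYK2 KO library lies on one side of every WT library, above for Lima1 and Them6 and below for Spats2 and Letmd1, with Lima1 separated by 30.7 CPM and Spats2 by 6.03 CPM.

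The genotypes did not overlap in any of the 4 genes, as was so for 1005 of all tested genes (10.2%). The spread between the 3 mice of a genotype was set beside the spread that counting alone would give. For Lima1 the coefficient of variation was 8.31% in WT and 7.92% in PYK2 KO BMDMs, where counting alone would give 8.11% and 6.19%. Them6 had 21.0% and 15.6% against 18.5% and 12.2% from counting. For Spats2 the 6.59% between WT mice was below the 12.4% from counting and the 22.7% between PYK2 KO mice was above the 18.7% from counting. Letmd1 had 12.7% against 8.31% in WT and 10.1% against 11.3% in PYK2 KO BMDMs. With 3 mice per group such values are themselves imprecise, and counts that are not independent molecules would vary more than counting gives.

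Ranked by p-value over all tested genes, Lima1 stood at 6, Them6 at 11, Letmd1 at 19 and Spats2 at 23, with adjusted p-values of 0.000380, 0.00855, 0.0388 and 0.0430 from the edgeR quasi-likelihood test after Benjamini-Hochberg adjustment. Ranked by the size of the log2 fold change they stood lower, at 71, 21, 136 and 51. Spats2 is thus close to the threshold that chose it. Just inside the threshold on chromosome 15 was also Csf2rb2, a beta chain of the mouse IL-3 receptor (153.6 ± 24.8 CPM in WT against 105.2 ± 6.81 CPM in the KO, SD, n = 3, log2 fold change -0.55, edgeR adjusted p = 0.0451). Just outside was Ncf4, a subunit of the phagocyte NADPH oxidase (237.7 and 305.2 CPM, log2 fold change 0.36, edgeR adjusted p = 0.125).

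The neighbours of the 4 genes were not used to choose them. Within 1 Mb on either side lay 50 other tested genes, and 0 of them passed in edgeR's quasi-likelihood test, where 0.255% of all genes did. At an unadjusted p-value under 0.05 there were 11 of 50 (22.0%), against 6.03% of all tested genes, and the genotypes did not overlap in 10 of 50 (20.0%), against 10.2%. These shares were not tested against each other. Values above and below 0 were equally many (25 and 25) and the median log2 fold change was -0.0060. DESeq2 and limma voom also called 0 of the 50, a likelihood ratio test in edgeR called 1 (Smarcd1), and the quasi-likelihood test without a filter on low counts called 2 (Ptp4a3 and Smarcd1).

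Lima1 had 31 tested neighbours within 1 Mb, of which 6 (19.4%) had an unadjusted p-value under 0.05, against 6.03% of all tested genes. The nearest, Cers5, a ceramide synthase, lies 5585 bases from it and was at 83.7 ± 3.40 CPM in WT against 65.1 ± 5.63 CPM in the KO (SD, n = 3), a log2 fold change of -0.36 with an edgeR adjusted p of 0.359. Its value had the opposite sign to that of Lima1. The next genes outward were Cox14, an assembly factor of cytochrome oxidase (log2 fold change 0.11, SE 0.16), on the same side, and Larp4, an RNA-binding protein (0.02, SE 0.20), and Dip2b (0.28, SE 0.17) on the other. Smarcd1, a subunit of SWI/SNF chromatin remodelling complexes 64.5 kb away, had the smallest adjusted p of all 50 neighbours, at 26.2 ± 2.97 CPM in WT against 16.6 ± 0.831 CPM in the KO (SD, n = 3, log2 fold change -0.66, edgeR adjusted p = 0.164). It was picked out after its value was seen.

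Around Spats2, 5 of 27 tested neighbours (18.5%) had an unadjusted p-value under 0.05, against 6.03% of all tested genes. The nearest genes on both sides had small differences, with log2 fold changes of -0.06 (SE 0.15) for Mcrs1, -0.33 (SE 0.32) for the splicing factor Prpf40b, 0.08 (SE 0.21) for Troap and -0.19 (SE 0.10) for the tubulin gene Tuba1c. The largest in size, that of Prpf40b, was about as large as its standard error. The window of Spats2 overlaps those of Lima1 and Letmd1, so the counts are not separate. Smarcd1, Cers5 and Prkag1 had an unadjusted p-value under 0.05 and lie within 1 Mb of both Spats2 and Lima1.

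Around Letmd1, 5 of 24 tested neighbours (20.8%) had an unadjusted p-value under 0.05, against 6.03% of all tested genes. These were Csrnp2, Bin2, Slc11a2, Cers5 and Smarcd1, which also lie within 1 Mb of Lima1. Csrnp2, a nuclear protein gene whose 3′ end faces that of Letmd1 across 406 bases, was at 4.72 ± 1.00 CPM in WT against 2.23 ± 0.40 CPM in the KO (SD, n = 3), a log2 fold change of -1.07 (SE 0.35, edgeR adjusted p = 0.583). Slc11a2, the iron transporter DMT1, was at 109.6 ± 2.78 and 89.8 ± 8.15 CPM (SD, n = 3, log2 fold change -0.29, edgeR adjusted p = 0.539). Both values had the sign of Letmd1 and neither passed. Further out, Tfcp2 was at 0.36 (SE 0.30) and Mettl7a1 at -0.12 (SE 0.10) on the log2 scale. Bin2, 162 kb away, had the opposite sign to Letmd1 (0.30, SE 0.08, edgeR adjusted p = 0.359). It was picked out after its value was seen.

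Them6 lies in a stretch with few tested genes. Of its 6 tested neighbours, 3 had an unadjusted p-value under 0.05, a share held by 6.03% of all tested genes. The Ly6 family of GPI-anchored surface proteins follows it. Ly6e, 230 kb away, was at 843 ± 82.3 CPM in WT against 1019 ± 105 CPM in the KO (SD, n = 3, log2 fold change 0.27, edgeR adjusted p = 0.596). Ly6a had a log2 fold change of 0.17 (SE 0.24) and Ly6c2, outside the naming rule and picked after its value was seen, 0.64 (SE 0.21, edgeR adjusted p = 0.591). On the other side the one tested gene was the phosphatase Ptp4a3, with 49.2 ± 8.75 CPM in WT against 34.4 ± 0.92 CPM in the KO (SD, n = 3, log2 fold change -0.51, edgeR adjusted p = 0.359). Of the 6 tested neighbours 5 had values above 0, as Them6 did, and Ptp4a3 was below. Among those above 0, Ly6a, Zfp41 (0.09, SE 0.28) and Top1mt (0.16, SE 0.31) were within their standard error of 0.

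**Figure D2:**
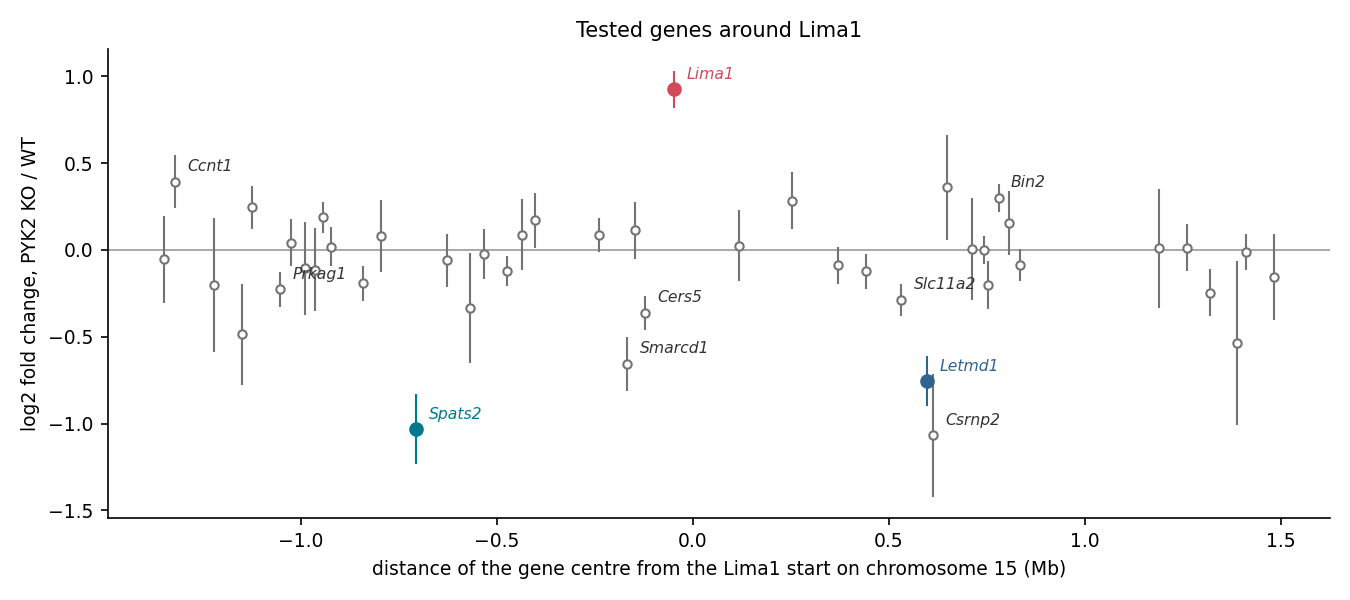
Log2 fold change of PYK2 KO against WT BMDMs (y axis, with SE bars) for the tested genes around Lima1, by distance from Lima1 (x axis). Filled points passed the edgeR threshold. Spats2, Lima1 and Letmd1, at -1.03, 0.93 and -0.76, are filled, and the other genes between Spats2 and Letmd1 are open, as is Csrnp2 just past Letmd1, at -1.07 with an SE of 0.35.

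Between Spats2 and Letmd1 lay 15 other tested genes, of which 0 passed and 3 (Smarcd1, Cers5 and Slc11a2) had an unadjusted p-value under 0.05 in edgeR's quasi-likelihood test. The values of 6 were above and of 9 below 0. In the 24.4 Mb between Them6 and Spats2, 2 of 213 tested genes passed. These were Csf2rb2 and Apobec3, a cytidine deaminase that restricts retroviruses (101.9 ± 4.53 CPM in WT against 69.7 ± 3.59 CPM in the KO, SD, n = 3, log2 fold change -0.55, edgeR adjusted p = 0.0122). Before Them6 0 of 120 and after Letmd1 0 of 45 tested genes passed in the same test. At an unadjusted p-value under 0.05 there were 21 of the 213 (9.86%), 12 of the 120 and 4 of the 45. Chromosome 15 as a whole held 397 tested genes, of which 6 passed (1.51%, beside 0.255% of all tested genes). Nothing is read from this share, since 4 of the 6 are the chosen genes. At an unadjusted p-value under 0.05 there were 44 of the 397 (11.1%), the 4 chosen genes included, beside 6.03% of all tested genes, and these shares were not tested against each other. The chromosome's median log2 fold change was -0.0044 where that of all genes was 0.0019. Ptk2, the gene for FAK, lies 1.30 Mb from Them6 and was at 10.4 ± 1.63 CPM in WT against 5.69 ± 0.778 CPM in the KO (SD, n = 3, log2 fold change -0.86, edgeR adjusted p = 0.401).

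Other genes of each member's biology were taken from lists with the 4 genes left out. Among 30 tested genes with LIM domains (45 listed), the class of Lima1, 0 passed in edgeR's quasi-likelihood test, against 0.255% of all tested genes. An unadjusted p-value under 0.05 was found for 3 (10.0%), against 6.03% of all tested genes. The median log2 fold change of the 30 was 0.01, beside 0.0019 for all tested genes. Their log2 fold changes ran from -0.38 to 0.35. The smallest p-values belonged to Crip1 (436.2 CPM in WT against 507.3 CPM in the KO, log2 fold change 0.22, SE 0.08) and Lpxn, the leukocyte relative of paxillin (-0.20, SE 0.08), followed by Lims1 (0.22), which was named after its value was seen. Among 58 tested genes of actin filament binding and assembly (65 listed), 0 passed and the median was -0.02. An unadjusted p-value under 0.05 was found for 1 gene (1.72%, against 6.03% of all tested genes). That gene was Tmsb4x, the actin monomer-binding thymosin beta 4 (log2 fold change 0.53, SE 0.18), whose genotypes overlapped, and the next was Wdr1, a cofactor of cofilin (-0.16, SE 0.08).

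For Them6, 20 of 32 genes of a list of thioesterases and related enzymes were tested (among them Hacd2 and Hacd3, which are acyl-CoA dehydratases and not thioesterases, and the esterase gene Esd). Of these 0 passed, against 0.255% of all tested genes, and the median log2 fold change was -0.01. An unadjusted p-value under 0.05 was found for 2 (10.0%), against 6.03% of all tested genes. Acot13, also called Them2, an acyl-CoA thioesterase of the same fold family, was at 55.6 ± 2.40 CPM in WT against 79.2 ± 9.38 CPM in the KO (SD, n = 3), a log2 fold change of 0.51 (SE 0.11, edgeR adjusted p = 0.0827). It was the gene of this list nearest to the threshold and its value had the sign of Them6. Esd, an S-formylglutathione hydrolase, was at 0.33 (SE 0.14) on the log2 scale.

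For Spats2, 46 of 51 listed cytoplasmic RNA-binding genes were tested, with a median log2 fold change of -0.0019. Of these 0 passed, against 0.255% of all tested genes. An unadjusted p-value under 0.05 was found for 2 genes (4.35%, against 6.03% of all tested genes). Those were Zc3h12a, the endonuclease Regnase-1 (46.8 CPM in WT against 36.5 CPM in the KO, log2 fold change -0.36, SE 0.12), and Zfp36, tristetraprolin (-0.46, SE 0.18), both of which shorten the life of inflammatory mRNAs. The log2 fold changes of the list ran from -0.46 to 0.27.

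For Letmd1, 48 of 51 genes of a list on the mitochondrial inner membrane and cristae were tested (among them the outer membrane genes Samm50, Mtx1 and Mtx2, and Tmbim1, whose product lies in other membranes). Of these 0 passed, against 0.255% of all tested genes, and the median log2 fold change was -0.02. An unadjusted p-value under 0.05 was found for 1 (2.08%), against 6.03% of all tested genes. The smallest p-values were those of Slc8b1, the mitochondrial sodium-calcium exchanger (73.3 and 60.5 CPM, log2 fold change -0.28, SE 0.12), and Mpc2, a subunit of the pyruvate carrier (-0.14, SE 0.08). The log2 fold changes of the list ran from -0.48 to 0.48. Over the 5 lists, DESeq2 and limma voom also called 0 genes, the likelihood ratio test and the robust fit in edgeR called 1 each (Acot13), and without a filter 4 were called (Acot13, Esd, Tmsb4x and Zfp36).

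**Figure D3:**
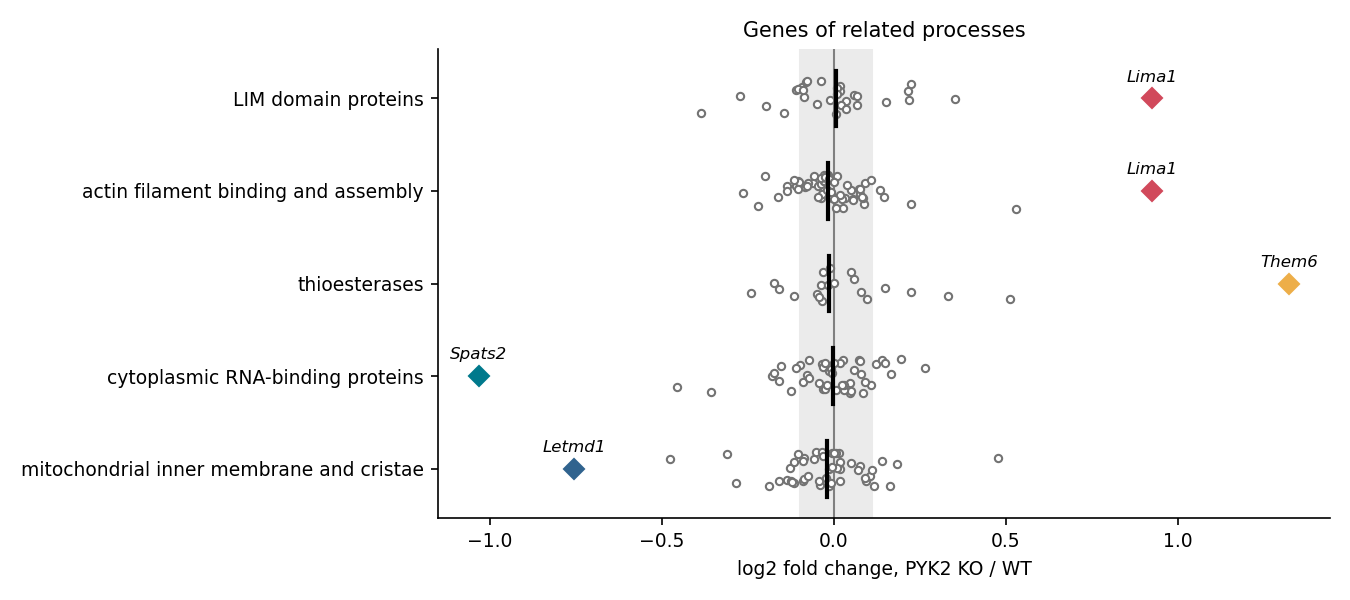
Log2 fold change of PYK2 KO against WT BMDMs (x axis) for each tested gene of the 5 lists (rows), with the list median as a black bar, the median and interquartile range of all 9815 tested genes as a gray line and band, and the 4 chosen genes as diamonds. List medians lie between -0.02 and 0.01, near the 0.0019 of all genes. The diamonds were chosen by this contrast, so their place beside the lists is no comparison.

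None of the closest relatives of the 4 genes passed the threshold. Letm1, the founding member of Letmd1's domain family, was at 51.1 ± 4.96 CPM in WT against 46.0 ± 6.46 CPM in the KO (SD, n = 3, log2 fold change -0.16, SE 0.13). Letm2 was at 3.90 ± 0.959 and 2.77 ± 0.516 CPM (SD, n = 3, log2 fold change -0.48, SE 0.36), the lowest value of the tested genes in the mitochondrial list, from which Letmd1 was left out. Both values were below 0 like that of Letmd1. Spats2l, the paralog of Spats2, had at most 1 count in any library, and Them4 had between 3 and 11, so neither was tested. Of LIM proteins at adhesion sites, Limd1 had a log2 fold change of 0.03 (SE 0.09), Pxn, which encodes the PYK2-binding adaptor paxillin, -0.09 (SE 0.09) and Micall2 0.01 (SE 0.12).

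The assignment of reads to the 4 genes was checked for shared sequence. In the last 1000 bases of the longest coding transcript of each gene, the one 3′ end searched, no stretch of 50 bases of Lima1, Spats2 or Letmd1 occurred in another gene. The 3′ end of Them6 shares 322 exon bases with Slurp1 on the opposite strand, and whether counting used strand is not given in the sources used here. Slurp1 had 0 counts in 5 libraries and 1 count in KO 3, against 26 to 79 counts of Them6. The 3′ end of Slurp1 lies in the shared bases, so its low count cannot show whether reads of Slurp1 were given to Them6. Genes annotated inside Lima1 and Spats2 share 0 exon bases with them and had at most 2 counts. In the longest coding transcript the last 1000 bases were 46.6% G and C for Lima1, 46.3% for Spats2, 50.7% for Letmd1 and 58.9% for Them6, with 50%, 48.6%, 67.4% and 96.5% of tested genes lower. The part of G and C content in the differences was not tested.

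The genes whose levels followed each member most closely were found by Pearson's r over the 6 libraries, as a description that includes the genotype difference itself. For Lima1 these were Ide, the insulin-degrading enzyme (r = 0.993), the proteasome subunit Psmb7 (0.987) and Ube2z (0.987). For Them6 they were Gm11223 (0.989), the transcription factor Nfe2 (0.987), which also lies on chromosome 15, and Srek1ip1 (0.984). Tm9sf3 (0.990), Pgrmc1 (0.988) and Cers5 (0.982) were the most like Spats2, and Cers5 is the gene beside Lima1. Rbm19 (0.990), Tradd (0.985) and Ostf1 (0.981) were the most like Letmd1. Of these 12 genes Ide and Gm11223 passed the threshold between genotypes. The choice of genes was not firm, since 7 of 12 remained without scaling and 0 of 12 with Spearman's rho, where between 12 and 18 genes tied at 1 for each member.

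The direction of the 4 differences was the same under all 16 other settings tried, while the side of the threshold was not. These settings refit the libraries that chose the 4 genes. As the genotypes did not overlap, leaving out a library could hardly reverse a direction, so nothing is read from the constant direction. Lima1 kept its side in all 16, with log2 fold changes of 0.86 to 0.99 when one library was left out at a time. Them6 lost it once, without KO 2 (1.19, edgeR adjusted p = 0.0562), and ran from 1.15 to 1.44. Letmd1 ran from -0.86 to -0.69 and kept its side only without WT 1 among the 6 fits that left out a library, so it was lost without WT 5, WT 6, KO 2, KO 3 or KO 4. Spats2 ran from -1.23 to -0.90 and kept its side only without KO 4, so it was lost without WT 1, WT 5, WT 6, KO 2 or KO 3. With the grouping of WT 1, KO 3 and KO 4 as a covariate the values were 0.92, 1.46, -1.06 and -0.66 for Lima1, Them6, Spats2 and Letmd1 and all 4 passed. That grouping came from the same data, and passing again in the libraries that chose the genes is a description only.

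**Figure D4:**
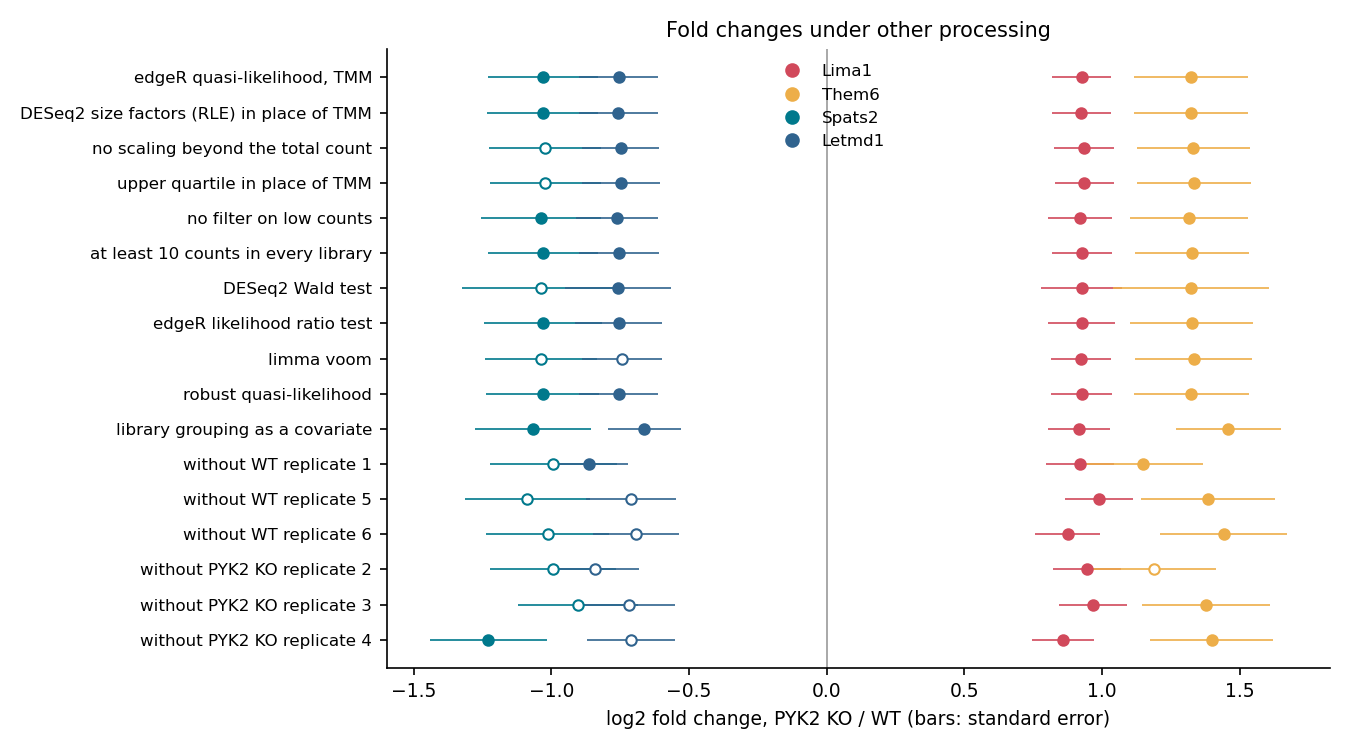
Log2 fold change of PYK2 KO against WT BMDMs (x axis, with SE bars) for Lima1, Them6, Spats2 and Letmd1 under each setting (y axis), with filled points past an adjusted p-value of 0.05 and open points not. No point crosses 0, Lima1 is filled throughout, and Spats2 is filled in 1 of the 6 fits that leave out a library.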

How the data were processed

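BMDM RNA of 6 mice was sequenced as 3′ MARS-seq libraries. Mapping and counting were done with UTAP by the authors, who deposited raw gene counts. The submitters' processing notes name cutadapt, STAR and mm10, with versions of the tools not given. Whether molecular identifiers were collapsed is not given in the sources used here, so counting errors are lower limits. Columns were matched to mice by name.

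Counts were filtered (filterByExpr), scaled (TMM) and tested on genotype in edgeR 4.0.16 (R 4.3.3) with the quasi-likelihood test and Benjamini-Hochberg adjustment over 9815 genes. The script was tested on simulated data. SE is that of the log2 fold change. Positions were found for 99.0% of tested genes. Correlations used log2(CPM + 1). Alternatives were DESeq2 1.42.0, limma 3.58.1 (voom), other scalings, filters and tests, the library grouping as a covariate, and leaving out each library.

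The members and the lists were chosen with earlier results of these data known. Named by rule were the members, Ptk2b, Ptk2, the 2 nearest tested genes on each side of a member, genes of chromosome 15 past or next to the threshold, relatives of the members, in each list the genes past the threshold or else the 2 with the smallest p, and the 3 genes most like each member.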

Additional observations from a re-analysis of the deposited data

How the results depend on the processing

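The log2 fold changes of the 4 members kept their direction in every setting, and that of other genes was not followed. Nothing is read from this, since every setting refits the libraries that chose the members. The number of genes past the threshold (25) was 159 without a filter on low counts, 45 with the likelihood ratio test, and 14 to 34 with one library left out (14 without KO 4, 34 without WT 1). Calls within 1 Mb of a member (0) became 2 without the filter and 1 with the likelihood ratio test. Calls in the 5 lists (0) became 4 without the filter, 1 with the likelihood ratio test, 1 with the robust fit, and 0 to 1 with one library left out (Tmsb4x without WT 1). Genes most like a member (12) were kept in 7 cases without scaling and in 0 with Spearman's rho. Spats2 was at -1.02 without scaling, -1.02 with upper-quartile scaling, -1.04 with DESeq2 and -1.04 with voom, with adjusted p-values of 0.0629, 0.0515, 0.113 and 0.0508, none under the threshold. Letmd1 with voom was at -0.74 (adjusted p = 0.0508). With one library left out, Spats2 ran from -1.23 to -0.90, Letmd1 from -0.86 to -0.69 and Them6 from 1.15 to 1.44 in fits with fewer samples. The cause of the other changes was not tested. Of 64 settings of the 4 members, 48 kept both direction and side of the threshold. No paired analysis was possible because no replicate number occurs in both genotypes. Spats2 and Them6 had 21 to 79 counts per library, and the part of depth in the lost calls was not tested.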
